A study of Mus musculus with 18 samples.

Results

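The 4 developmental pluripotency-associated genes Dppa2, Dppa3, Dppa4 and Dppa5a were followed through PGCLC differentiation of wild-type and TKO cells. They were chosen by name from the 25239 genes of the count table, and all 4 were among the 16582 genes with enough counts to be tested. The table held 18 RNA-seq libraries, 2 for each of 9 conditions, from the mouse ESC line E14Tg2a and from TKO cells, a derivative of it in which the open reading frames of Tet1, Tet2 and Tet3 had been excised with CRISPR/Cas9 through successive rounds of targeting. TKO cells stem from a single targeted clone, so genotype and clone cannot be told apart. Cells of both genotypes were kept in 2i/LIF, turned into epiblast-like cells (EpiLCs, taken as day 0) with Activin A and Fgf, and moved to suspension culture in GK15 medium. Cultures with cytokines received BMP4, BMP8a, SCF, LIF and EGF, which direct EpiLCs to primordial germ cell-like cells (PGCLCs). EpiLCs were sampled in both genotypes. Wild-type cultures were then sampled at days 2 and 6 when cytokines were left out and at day 6 when they were added, and TKO cultures on both days under either treatment. The table held no library of wild-type cells that had received cytokines for 2 days. The day 6 wild-type PGCLCs carry the label of whole aggregates, whereas the legend of the study describes them as sorted for SSEA1 and CD61 expression, and all other cultures as unsorted aggregates. In every comparison with these PGCLCs, sorting and condition therefore cannot be told apart. Following the study, TKO aggregates of either day and treatment are called TKO PGCLCs here. They were not sorted, so the name does not say what share of their cells were PGCLCs.

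All of these genes are read in pluripotent cells, in early germ cells or in the oocyte and early embryo, and they are silent in most somatic tissues, where methylation of their promoters accompanies the silent state. The products do different things. DPPA2 and DPPA4 are small SAP-domain proteins that bind chromatin as a heterodimer. They keep promoters of developmental genes free of DNA methylation, and they are upstream activators of Dux and the genes of the cleavage-stage embryo in mouse ESCs. DPPA3 (also called Stella or PGC7) is a maternal-effect protein that marks primordial germ cells. It restrains UHRF1, the cofactor that brings DNMT1 to newly replicated DNA, and shields methylated cytosines of the maternal genome from TET3 in the zygote. DPPA5A (also called ESG1) is an RNA-binding protein with a KH domain, and its transcript is among the most abundant of those restricted to pluripotent cells. TET proteins oxidise methylated cytosine, so genes whose promoters are methylated on differentiation are of interest in TKO cells. DNA methylation was not measured in these libraries, so its part in the levels of these genes was not tested.

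Dppa2 (16:48310274-48319513) and Dppa4 (16:48283735-48294292) lie next to each other, 15.98 kb apart, in RefSeq on the GRCm38 assembly. Dppa3 lies on chromosome 6 (6:122626424-122630271) and Dppa5a on chromosome 9 (9:78367052-78368199). No other gene of GENCODE vM21 overlaps any of them on either strand. Each has copies elsewhere, such as the pseudogenes Dppa5b and Dppa5c of Dppa5a and Dppa3-ps of Dppa3. Dppa5b and Dppa5c were each 96.3% identical to Dppa5a over 299 aligned positions, for a Dppa5a transcript of 619 bases. Dppa3-ps was 98.2% identical to Dppa3 over 451 aligned positions, for a Dppa3 transcript of 833 bases. Of all 50-base stretches of the transcript, 36.7% in Dppa2, 17.7% in Dppa3, 37.2% in Dppa4 and 38.6% in Dppa5a also occur in a transcript of another annotated gene. Fragments that mapped to several places were not counted, so the level of each gene is uncertain and may be too low, by a share that differs between the genes.

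Libraries held between 11286050 and 41257861 counts, of which the ribosomal RNA locus Rn45s took 16.2% to 47.6%. Levels are given as normalised counts, the counts divided by the size factor of the library. Tet1 stood at 6036 to 6227 in wild-type and 737 to 967 in TKO EpiLCs, while Tet2 stood at 125 to 186 in wild-type and 31.7 to 102 in TKO EpiLCs and Tet3 at 821 to 1019 and 131 to 159. Tet3 was lower in TKO cells in all 4 comparisons of the genotypes (log2 fold changes of −4.23 to −1.73). Tet1 was lower in EpiLCs and in day 6 PGCLCs with cytokines but did not pass without cytokines, at day 2 (−0.30, adjusted p = 0.491 by edgeR, with 1937 and 1200 in TKO against 2028 and 1754 in wild-type cells) or at day 6 (−0.12, adjusted p = 0.777). Tet2 was lower at day 6 in both cultures and did not pass in EpiLCs (−1.17, adjusted p = 0.141) or at day 2 (0.61, adjusted p = 0.301). Exons outside the deleted reading frames are counted too, so these counts per gene do not check the deletion itself. The summed level of 5 EpiLC markers was 53636 to 58670 in wild-type and 24432 to 25883 in TKO EpiLCs, and that of 8 PGCLC markers was 13639 to 16344 in day 6 wild-type PGCLCs. The 11 neural markers summed to 38231 to 52571 in wild-type cells after 6 days without cytokines, and to no more than 6397 in any other library, and none of the 11 was at 0 in both of those day 6 libraries. Day 6 wild-type cells without cytokines thus carried neural markers, and their replicates stood furthest apart of all conditions (chi-square per gene of 167, against 10.5 to 57.7 elsewhere).

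Dppa2 was measurable in both EpiLC lines and moved apart between the genotypes once cytokines were withheld. In wild-type cells its normalised counts were 387 and 308 in EpiLCs, 20.5 and 5.44 without cytokines at day 2, and 0 and 0 at day 6. A count of 0 in those 2 libraries allows a level of up to 1.36 and 3.47 (3 counts each). Wild-type PGCLCs at day 6 held 480 and 440. In TKO cells the values were 387 and 368 in EpiLCs, 915 and 804 without and 751 and 681 with cytokines at day 2, and 1074 and 1237 without and 1020 and 1126 with cytokines at day 6. The 4 wild-type libraries without cytokines lay below all others, and the 8 libraries of TKO PGCLCs lay above all others. In the order of mean levels, day 6 TKO PGCLCs without cytokines came first, followed by day 6 TKO PGCLCs with cytokines, day 2 TKO PGCLCs without and with cytokines, wild-type PGCLCs, TKO EpiLCs, wild-type EpiLCs and the wild-type cells without cytokines at day 2 and day 6. Of the 8 steps in this order, the difference passed the test at the last 2, that is below wild-type EpiLCs. Of all 36 pairs of conditions, 26 differed for Dppa2. Counts of pairs, here and for the other members, were not set against those of all genes.

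Dppa4, the partner of Dppa2, was also low in wild-type cells without cytokines and lay in a narrow range elsewhere. Wild-type libraries held 1226 and 1172 in EpiLCs, 80.9 and 24.9 without cytokines at day 2, 2.27 and 0 at day 6, and 1713 and 1403 in PGCLCs. TKO libraries held 1273 and 1356 in EpiLCs, 1155 and 1072 without and 1491 and 1208 with cytokines at day 2, and 1018 and 1018 without and 1156 and 1063 with cytokines at day 6. The 14 libraries other than those of wild-type cells without cytokines lay between 1018 and 1713 and their groups lay close together or overlapped. In the order of means, from wild-type PGCLCs to day 6 TKO PGCLCs without cytokines, none of the first 6 steps passed the test, and both steps down to the wild-type cells without cytokines did. For Dppa4, 15 of the 36 pairs of conditions differed.

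Dppa3, the germ cell marker of the group, had its highest level in wild-type PGCLCs. Its normalised counts in wild-type cells were 45.0 and 36.7 in EpiLCs, 1.95 and 4.66 without cytokines at day 2, 0.45 and 0 at day 6, and 901 and 871 in PGCLCs. TKO EpiLCs held 5.95 and 22.0, and TKO PGCLCs held 105 and 58.9 without and 197 and 137 with cytokines at day 2. At day 6, TKO PGCLCs held 422 and 317 without and 228 and 411 with cytokines. The replicates of TKO EpiLCs and of day 6 TKO PGCLCs with cytokines were far apart, and the day 6 TKO groups overlapped. In the order of means, wild-type PGCLCs stood above day 6 TKO PGCLCs without cytokines (log2 difference of 1.28 ± 0.38, SE, adjusted p = 0.0222). The next 5 steps, through TKO PGCLCs with cytokines at days 6 and 2, those without at day 2, and wild-type EpiLCs to TKO EpiLCs, did not pass. The step from TKO EpiLCs to day 2 wild-type cells without cytokines did (1.94 ± 0.71, adjusted p = 0.0468), and the last step to day 6 did not. Of the 36 pairs of conditions, 29 differed for Dppa3.

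Dppa5a was the most abundant of the 4 genes per kb of exon in every library. Wild-type libraries held 15902 and 11617 in EpiLCs, 355 and 442 without cytokines at day 2, 47.1 and 16.2 at day 6, and 20428 and 20278 in PGCLCs. TKO libraries held 12724 and 25783 in EpiLCs, 19329 and 16208 without and 26950 and 47286 with cytokines at day 2, and 18230 and 22827 without and 43260 and 41172 with cytokines at day 6. Dppa5a was thus the only member still above the limit of a count of 0 in both day 6 wild-type libraries without cytokines. The highest means were those of TKO PGCLCs with cytokines at days 6 and 2, and none of the first 6 steps in the order of means passed the test. As for Dppa4, the steps that passed were those down to the wild-type cells without cytokines, and 19 of the 36 pairs differed. Without Rn45s, Dppa5a took 0.0854% to 0.370% of the counts in the other 14 libraries and 0.000130% to 0.00370% in wild-type cells without cytokines.

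**Figure D1:**
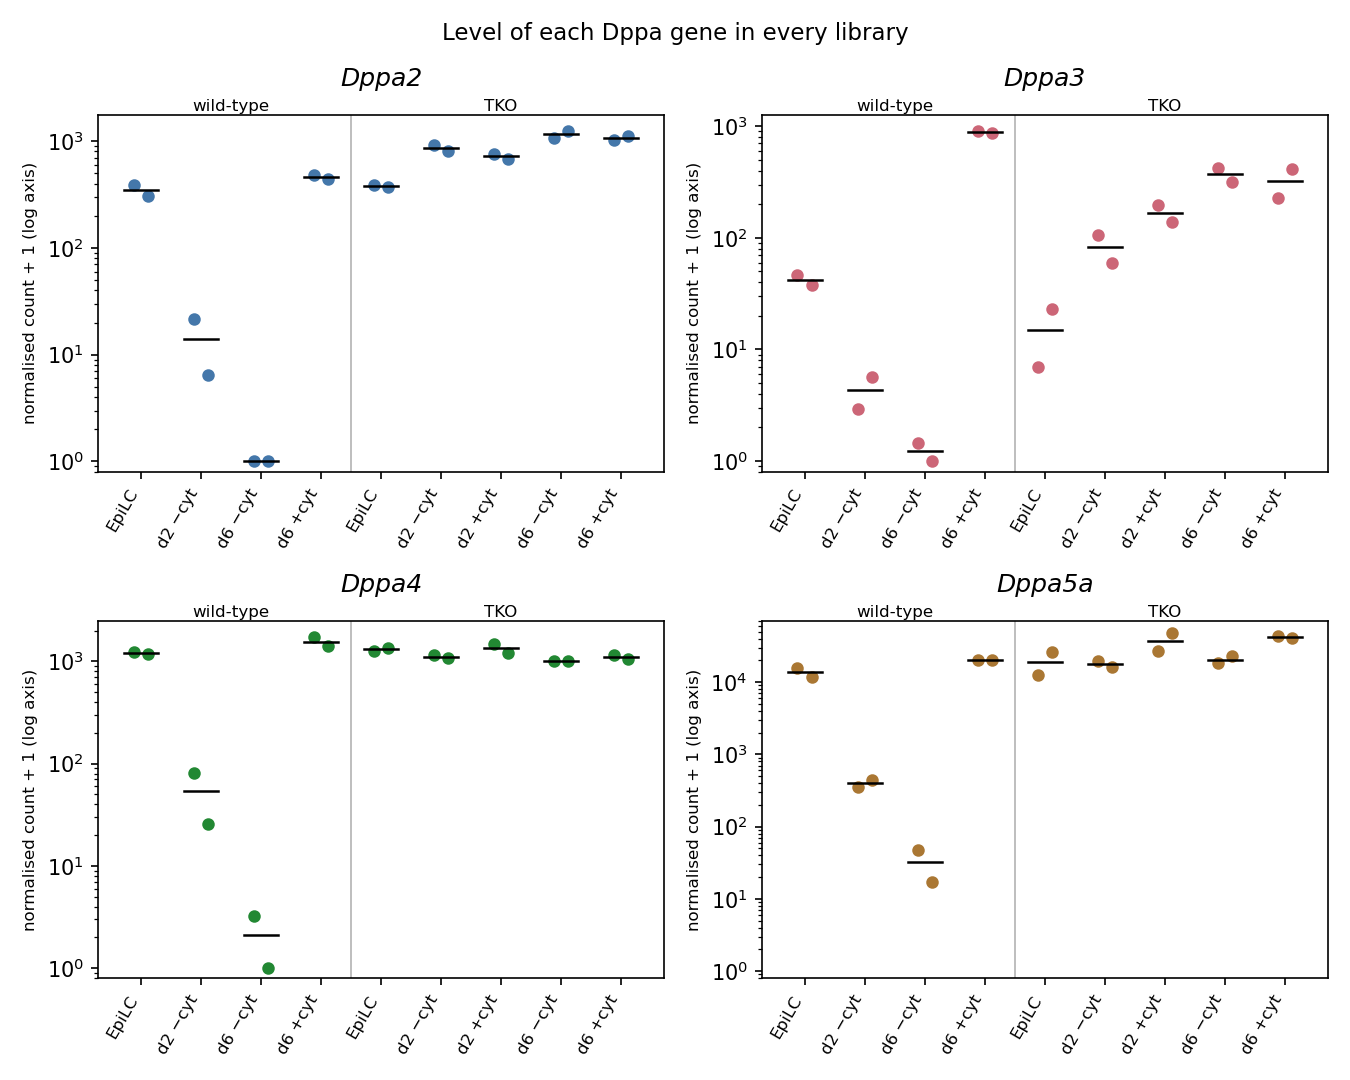
Normalised count plus 1 (log axis) of Dppa2, Dppa3, Dppa4 and Dppa5a in each of the 18 libraries, grouped by condition (d2 and d6, days 2 and 6; −cyt and +cyt, without and with cytokines), with points for libraries and bars for means of 2. Levels fall from EpiLCs to day 6 in wild-type cells without cytokines, where Dppa2 was 0 in both libraries. In TKO PGCLCs, Dppa2 lies between 681 and 1237, Dppa3 between 58.9 and 422, Dppa4 between 1018 and 1491 and Dppa5a between 16208 and 47286.

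Levels of different genes were compared per kb of RefSeq exon. On this scale Dppa5a stood at 22229 ± 4895 (SD, n = 2) in wild-type EpiLCs, Dppa4 at 811 ± 25.5, Dppa2 at 178 ± 28.7 and Dppa3 at 49.0 ± 7.04. Dppa3 ranked last of the 4 in EpiLCs. In wild-type PGCLCs Dppa3 stood at 1064 ± 25.3 per kb, level with Dppa4 at 1053 ± 148 and above Dppa2 at 236 ± 14.6. In day 6 TKO PGCLCs with cytokines it stood at 384 ± 155 per kb, below Dppa2 at 551 ± 38.7 and Dppa4 at 750 ± 44.3. Differences between genes were not tested, and the uncounted fragments shared with copies bear on these levels.

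In wild-type cells without cytokines the level of all 4 genes dropped within 2 days. From EpiLCs to day 2, 4 of 4 members fell, against 15.7% of all genes tested. Log2 fold changes were −4.74 ± 0.34 (SE) for Dppa2 (adjusted p = 4.73e-07), −3.45 ± 0.62 for Dppa3 (adjusted p = 0.000609), −4.49 ± 0.36 for Dppa4 (adjusted p = 7.06e-07) and −5.05 ± 0.43 for Dppa5a (adjusted p = 1.15e-06), by the quasi-likelihood test of edgeR with adjustment over all genes. These are 26.8-fold, 10.9-fold, 22.4-fold and 33.2-fold lower levels. The summed level of the 11 neural markers rose at the same time, from 1018 to 1208 in EpiLCs to 5697 to 6397 at day 2. In whole cultures, fewer cells with a transcript and less of it per cell cannot be told apart.

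From day 2 to day 6 the decline went on. Here 3 of 4 members fell, against 19% of all genes. Dppa4 fell by 4.96 ± 0.61 on the log2 scale (adjusted p = 1.70e-05) and Dppa5a by 3.57 ± 0.43 (adjusted p = 1.50e-05). Dppa4 had 5 and 0 counts in the day 6 libraries, so the size of its fall is uncertain. Dppa2 had 21 and 7 counts in the day 2 libraries and none at day 6, a level at least 5.36-fold lower (adjusted p = 0.000109). Dppa3 did not pass (adjusted p = 0.0661). It had 1 count at day 6, and the ratio of its day 2 level to its day 6 level was 10.6, with an exact 95% counting interval of 1.42 to 471. Intervals and limits here cover counting error only.

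Wild-type PGCLCs at day 6 held far more Dppa3 than the EpiLCs they came from. Against wild-type EpiLCs, 1 of 4 members rose, against 22.4% of all genes. This was Dppa3, with a log2 fold change of 4.50 ± 0.45 (adjusted p = 3.42e-06), 22.7-fold. Dppa2 (0.46 ± 0.26, adjusted p = 0.172), Dppa4 (0.42 ± 0.30, adjusted p = 0.279) and Dppa5a (0.61 ± 0.36, adjusted p = 0.192) did not pass. All 3 passed when only the 4 libraries of the comparison were fitted, at log2 fold changes of 0.41, 0.37 and 0.56. Against wild-type cells without cytokines at day 6, 4 of 4 members were higher in PGCLCs, against 29.6% of all genes. Dppa2 was at least 190-fold higher. Dppa3 was 2718-fold higher, with a counting interval of 487 to 107409. Dppa4 and Dppa5a were higher by 9.87 ± 0.54 and 9.24 ± 0.53 on the log2 scale (adjusted p = 1.57e-09 and 2.60e-09). The value of Dppa4 rests on 5 and 0 counts in the cells without cytokines, so its size is uncertain.

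In EpiLCs none of the 4 genes passed the test between the genotypes. Between TKO and wild-type EpiLCs, 0 of 4 members passed, against 10.8% of all genes, and none had an unadjusted p below 0.05 apart from Dppa3 at 0.00970. Dppa3 had a log2 fold change of −1.51 ± 0.51 (adjusted p = 0.0723), and its lower wild-type library exceeded its higher TKO library, 36.7 against 22.0. It passed with DESeq2 (log2 fold change of −1.55), without a filter on low counts (−1.51) and without TKO EpiLC replicate 2 (−2.71). Values for the others were 0.16 ± 0.26 for Dppa2, 0.16 ± 0.30 for Dppa4 and 0.52 ± 0.36 for Dppa5a. For Dppa5a the TKO replicates differed more than the genotypes, and the log2 fold change was −0.09 without TKO EpiLC replicate 2.

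Without cytokines the genotypes parted. At day 2, 4 of 4 members were higher in TKO than in wild-type cells, against 18% of all genes. Log2 fold changes were 6.08 ± 0.35 for Dppa2 (adjusted p = 5.95e-08), 4.50 ± 0.59 for Dppa3 (adjusted p = 4.50e-05), 4.399 ± 0.36 for Dppa4 (adjusted p = 6.19e-07) and 5.44 ± 0.44 for Dppa5a (adjusted p = 4.77e-07). These are 67.4-fold, 22.7-fold, 21.1-fold and 43.5-fold differences. The median over the 4 members was 4.97 and that over all genes 0.0044. For 6 of 11 neural markers the level was lower in TKO cells, against 14.8% of all genes.

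At day 6 without cytokines, 4 of 4 members were again higher in TKO cells, against 28.5% of all genes. Dppa2, with no count in either wild-type library, was at least 478-fold higher. Dppa3, with 1 wild-type count, was 1147-fold higher, with a counting interval of 205 to 45364. Dppa4 and Dppa5a were both higher by 9.23 on the log2 scale (SE of 0.54 and 0.53, adjusted p = 4.67e-09 and 4.10e-09), about 601-fold each. Dppa4 had only 5 and 0 counts in the wild-type libraries, so the size of its fold is uncertain. In this comparison 55.4% of all genes differed in one direction or the other, and all 11 neural markers were lower in TKO cells, against 26.9% of all genes. Their part in the result was not tested.

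With cytokines at day 6 the 4 genes went separate ways. Between TKO and wild-type PGCLCs, 1 of 4 members was higher, against 11.3% of all genes, and 1 of 4 was lower, against 7.53%. Dppa2 was 2.32-fold higher in TKO PGCLCs (log2 fold change of 1.22 ± 0.26, adjusted p = 0.00488). Dppa3 was 2.77-fold lower (−1.47 ± 0.38, adjusted p = 0.0143). Dppa4 (−0.50 ± 0.30, adjusted p = 0.276) and Dppa5a (1.048 ± 0.36, adjusted p = 0.0563) did not pass. The summed level of the 8 PGCLC markers was 5281 to 7032 in these TKO libraries, against 13639 to 16344 in the wild-type ones. Of these markers 4 were lower and none was higher in TKO PGCLCs. Nanos3, which early germ cells need to survive, was lower by a log2 fold change of −2.53 ± 0.41 (adjusted p = 0.000762, chosen after its values were seen). Its part and that of sorting in the difference of Dppa3 were not tested in these libraries. By RT-qPCR on sorted PGCLCs of both genotypes, the study reports less Dppa3 in TKO than in wild-type cells. The study also names Dppa3 in an RNA-seq gene group that it describes as lower in wild-type PGCLCs at day 6. That description runs opposite to the values given here.

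These calls rest on few libraries. The call of Dppa2 was lost without wild-type PGCLC replicate 2 (log2 fold change of 1.15), and that of Dppa3 without wild-type PGCLC replicate 1 (−1.45) or 2 (−1.502) and without day 6 TKO PGCLC replicate 1 with cytokines (−1.12). Dppa5a passed with DESeq2 (1.053), without a filter (1.04) and with only the 4 libraries of the comparison (1.02), and Dppa4 passed with only those libraries (−0.52).

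Within TKO cells, Dppa2 and Dppa3 rose after the EpiLC stage. From EpiLCs to day 2 without cytokines 2 of 4 members rose, against 10.1% of all genes. Dppa2 rose 2.26-fold (log2 fold change of 1.18 ± 0.26, adjusted p = 0.00768) and Dppa3 5.90-fold (2.56 ± 0.49, adjusted p = 0.00313). With cytokines it was also 2 of 4, against 7.88%. Dppa2 rose 1.90-fold (0.93 ± 0.26, adjusted p = 0.0269) and Dppa3 12.1-fold (3.60 ± 0.48, adjusted p = 0.000182). Dppa4 had log2 fold changes of −0.25 ± 0.30 without and 0.04 ± 0.30 with cytokines, and Dppa5a of −0.13 ± 0.36 and 0.95 ± 0.36, none of which passed. The call of Dppa2 with cytokines was lost when any 1 of the 4 libraries was left out (0.86 to 0.99), and that without cytokines was lost without TKO EpiLC replicate 2 (1.14) or day 2 TKO PGCLC replicate 1 without cytokines (1.06).

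From day 2 to day 6, Dppa3 rose further in TKO PGCLCs without cytokines, 4.51-fold (log2 fold change of 2.17 ± 0.40, adjusted p = 0.0259). It was the 1 of 4 members to rise, against 0.422% of all genes, or 70 genes. The call was lost when any 1 of the 4 libraries was left out, at log2 fold changes of 1.82 to 2.66. With cytokines 0 of 4 members passed, against 6% of all genes. Unadjusted p-values there were 0.0364 for Dppa2 and 0.0273 for Dppa3, at log2 fold changes of 0.59 ± 0.25 and 0.95 ± 0.39, and no member passed with DESeq2.

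Between TKO PGCLCs with and without cytokines, none of the 4 genes passed the edgeR test. At day 2, 0 of 4 members passed, against 4.52% of all genes, and at day 6 again 0 of 4, against 5.61%. Dppa5a came closest, with log2 fold changes of 1.08 ± 0.36 at day 2 (adjusted p = 0.0949, unadjusted p = 0.00950) and 1.06 ± 0.36 at day 6 (adjusted p = 0.1004, unadjusted p = 0.0108), and it was higher in 2 of 2 libraries with cytokines each time. It passed with DESeq2 at both days (1.06 and 1.04), as it did without a filter and with only the libraries compared. Dppa3 at day 2 had 1.04 ± 0.40 (adjusted p = 0.138, unadjusted p = 0.0212). Dppa2 and Dppa4 had log2 fold changes between −0.25 and 0.29.

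Day 2 TKO PGCLCs were also set beside day 6 wild-type PGCLCs, a condition in which wild-type cells held all 4 transcripts. With cytokines 1 of 4 members was lower in the TKO cells, against 9.49% of all genes, and without cytokines 1 of 4 was lower, against 11.1%, and 1 of 4 higher, against 13%. Dppa3 was the lower one in both, 5.34-fold with cytokines (log2 fold change of −2.42 ± 0.40, adjusted p = 0.000837) and 10.9-fold without (−3.45 ± 0.42, adjusted p = 7.60e-05). Dppa2 was 1.83-fold higher without cytokines (0.88 ± 0.25, adjusted p = 0.0231), a call that was lost when any 1 of the 4 libraries was left out (0.77 to 0.97). Both comparisons share the same wild-type libraries.

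The difference between the genotypes was itself tested as an interaction, the log2 fold change in TKO cells minus that in wild-type cells. From EpiLCs to day 2 without cytokines, 4 of 4 members had a higher value in TKO cells, against 6.08% of all genes. From day 2 to day 6 without cytokines it was also 4 of 4, against 9.81%. The effect of cytokines at day 6 was lower in TKO cells for 4 of 4 members, against 22% of all genes.

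**Figure D2:**
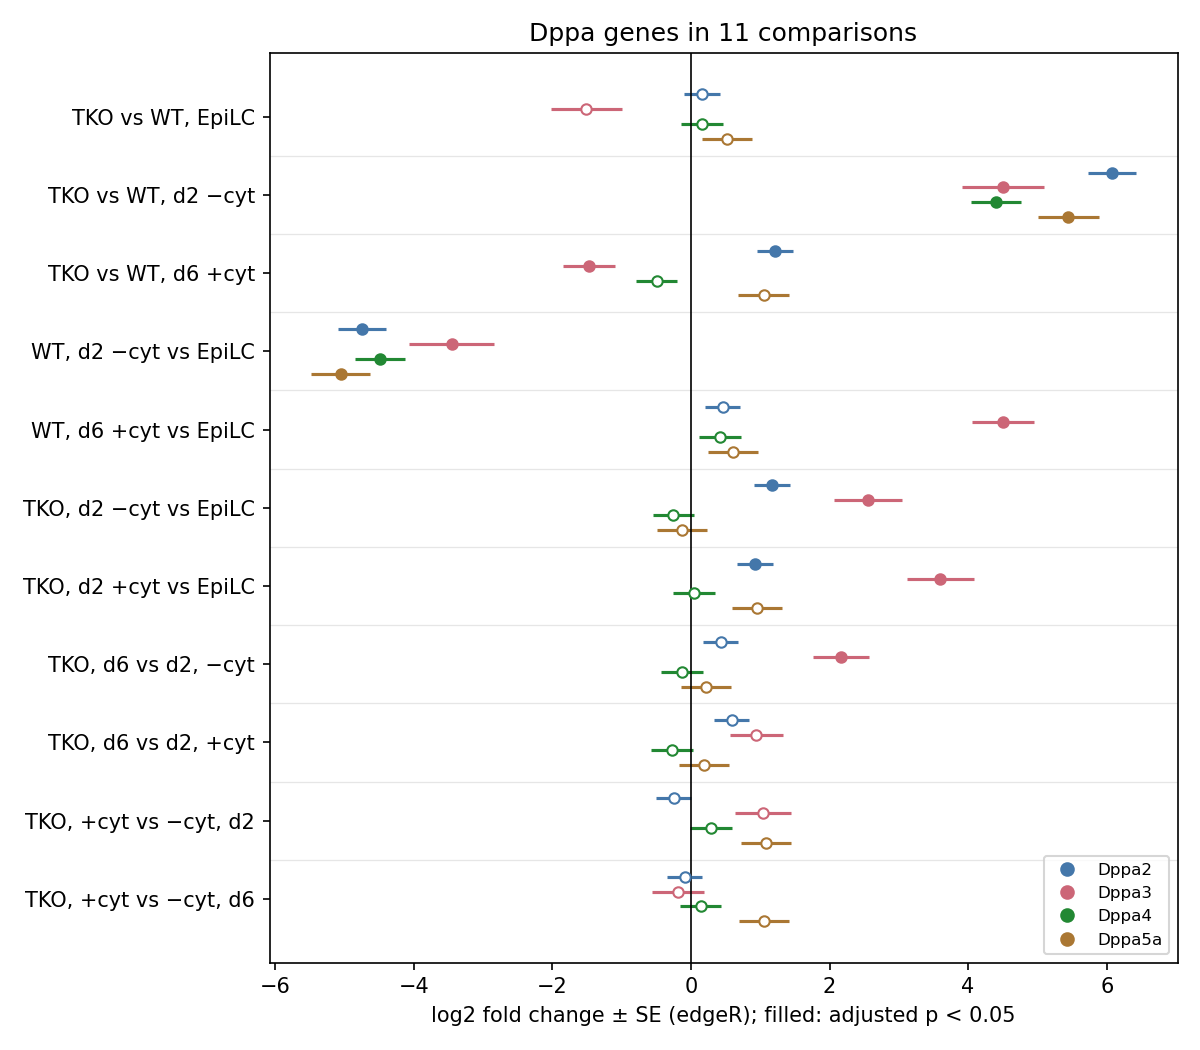
Log2 fold change with its standard error for each gene in 11 comparisons, named on the vertical axis (TKO vs WT, TKO against wild-type; d2 and d6, days 2 and 6; −cyt and +cyt, without and with cytokines), filled where the adjusted p was below 0.05. All 4 genes stand between 4.399 and 6.08 for TKO against wild-type cells at day 2 without cytokines, whereas at day 6 with cytokines Dppa2 is at 1.22 and Dppa3 at −1.47, and Dppa4 lies between −0.28 and 0.29 in the comparisons within TKO cells. Comparisons with day 6 wild-type cells without cytokines are left out because their fitted values depend on counts of 0.

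The shift of Dppa2 against Dppa4 could be read within each library, where normalisation plays no part. Counts of Dppa2 were 0.26 to 0.32 of those of Dppa4 in EpiLCs of both genotypes and in wild-type PGCLCs. Day 2 wild-type cells without cytokines were at 0.22 and 0.25, with few counts behind them. In TKO PGCLCs the ratio was 0.79 and 0.75 without and 0.50 and 0.56 with cytokines at day 2, and 1.06 and 1.21 without and 0.88 and 1.06 with cytokines at day 6. All 8 libraries of TKO PGCLCs therefore lay above all others. As a share of the counts of both genes, Dppa2 made up 21.9% and 23.9% in wild-type PGCLCs (exact 95% intervals of 20.5% to 23.4% and 22.3% to 25.5%). In TKO PGCLCs with cytokines at day 6 it made up 46.9% and 51.4% (44.1% to 49.6% and 49.2% to 53.7%). Each interval covers counting error within its library only, not variation between cultures. Per kb of exon the ratio was 0.23 and 0.21 in TKO EpiLCs, against 0.80 and 0.92 in day 6 TKO PGCLCs without cytokines. The ratio was noticed in these data and its difference between conditions was not tested.

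**Figure D3:**
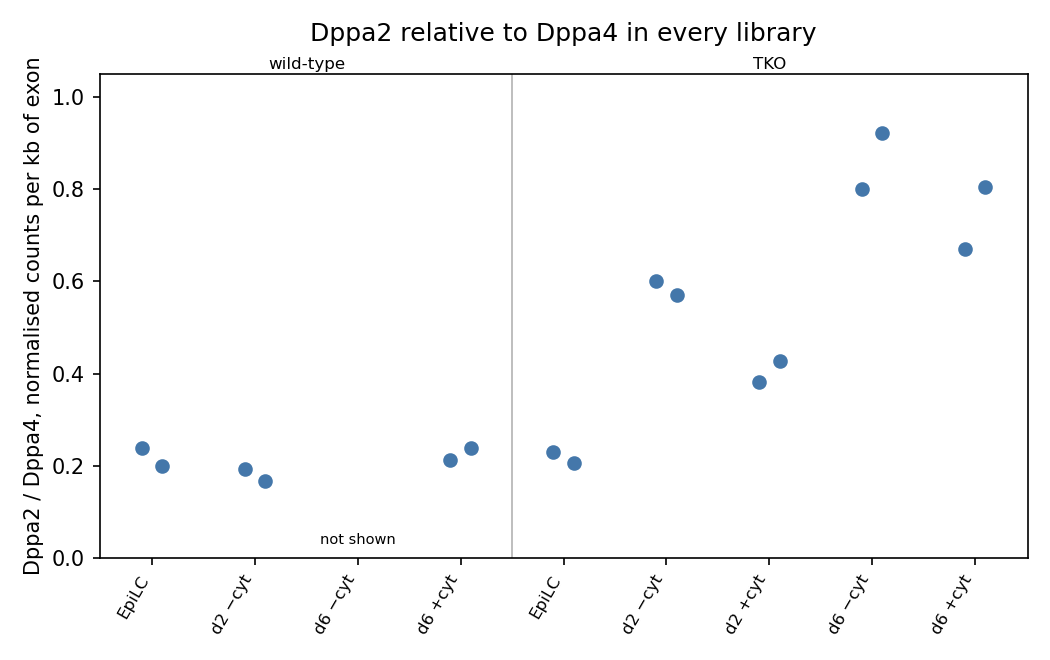
Ratio of Dppa2 to Dppa4, both as normalised counts per kb of exon, in each library by condition (d2 and d6, days 2 and 6; −cyt and +cyt, without and with cytokines). EpiLCs and wild-type cells lie between 0.17 and 0.24 and TKO PGCLCs between 0.38 and 0.92, and day 6 wild-type cells without cytokines are not shown because Dppa2 and Dppa4 had only 0 and 5 counts in replicate 1 and 0 and 0 in replicate 2.

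Across the 18 libraries, levels of the 4 genes moved together, with Pearson's r of log2 CPM between 0.78 (Dppa3 and Dppa4) and 0.98 (Dppa4 and Dppa5a). Much of this came from the 4 low libraries of wild-type cells without cytokines. Over the other 14, r was −0.53 between Dppa2 and Dppa4, 0.52 between Dppa2 and Dppa3, 0.53 between Dppa2 and Dppa5a, and 0.01 between Dppa4 and Dppa5a. Libraries of a condition are not independent points for such a value, which only describes these 18 libraries.

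The genes whose profile was most like that of a member were sought among 11996 genes with a mean normalised count of 50 or more. For Dppa2 these were Zfp936, Pramef12, Abcb1a, Lncenc1 and Trap1a (Pearson's r of 0.98 to 0.99 over 18 libraries). Zfp936, a zinc-finger gene, held 384 and 320 in wild-type EpiLCs, 7.71 and 4.63 in wild-type cells after 6 days without cytokines, and 691 and 637 in the TKO cells of that culture. For Dppa4 they were Gdf3, EU599041, Dmc1, Gm10130 and 2410141K09Rik (0.98 to 0.99), where Gdf3 is a TGF-beta family ligand and Dmc1 a recombinase of meiosis. By rank, the likeness of these 5 genes to Dppa4 was weaker, with Spearman's rho of 0.45 to 0.66. For Dppa5a they were Tdgf1, Abcb1a, Pramef12, Jade1 and Tex19.1 (0.99). Tdgf1, which encodes the NODAL co-receptor Cripto, held 3785 and 3296 in wild-type EpiLCs, 9.97 and 2.32 in wild-type cells after 6 days without cytokines, and 5082 and 4636 in TKO cells of that culture.

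For Dppa3 they were Rhox9, Tle6, Rhox6, Sdc4 and Manba (0.95 to 0.96). Rhox6 and Rhox9 are homeobox genes of the X chromosome that are active in germ cells. Rhox9 held 700 and 331 in wild-type PGCLCs, 213 and 297 in the TKO PGCLCs given cytokines for 6 days, and 19.3 and 11.7 in wild-type EpiLCs. Tle6, a component of the maternal complex beneath the oocyte membrane, held 348 and 364, 274 and 171, and 104 and 32.2 in the same conditions. With Spearman's rho in place of r, 0, 2, 0 and 1 of the 5 genes stayed for Dppa2, Dppa3, Dppa4 and Dppa5a, and with the 9 condition means 4, 3, 2 and 3 did. The choice of like genes thus depends on the measure.

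Genes near the members on the chromosome were compared in the same way. Around Dppa2 and Dppa4, the nearest other tested gene was Morc1, 112 kb beyond Dppa2, which encodes a germline protein needed to silence transposons. Morc1 held 618 and 395 in wild-type EpiLCs, 19.5 and 4.66 at day 2 and 6.35 and 0 at day 6 without cytokines, and 785 and 810 in TKO cells at day 2. It was higher in TKO cells by a log2 fold change of 6.07 ± 0.55 at day 2 without cytokines (adjusted p = 1.45e-06), and it did not pass at day 6 with cytokines (−0.17 ± 0.39, adjusted p = 0.810). The other tested neighbours of Dppa2, Nectin3 and Gm4737, lie 1812 kb and 2155 kb away and did not pass at day 2 without cytokines. At day 6, Gm4737 was higher in TKO cells without cytokines (log2 fold change of 1.12, adjusted p = 0.00360 by edgeR). Nectin3 was lower in TKO cells at day 6 with cytokines (−0.86, adjusted p = 0.00806 by edgeR).

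Around Dppa3, Gdf3 at 16.3 kb, Apobec1 at 23.4 kb, Nanog at 77.2 kb and Mfap5 at 97.1 kb were higher in TKO cells at days 2 and 6 without cytokines, and Slc2a3 at 97.5 kb was higher at day 6. Rimklb at 139.4 kb and Foxj2 at 189.9 kb did not pass on either day. Nanog, a core pluripotency factor, differed from Dppa3 in that wild-type cells without cytokines still held 1577 and 1782 at day 2, above the 423 and 359 of EpiLCs, before 16.8 and 9.26 at day 6. Around Dppa5a, Ooep at 8.70 kb, Ddx43 at 27.6 kb and Cgas at 62.3 kb were higher in TKO cells at day 2 without cytokines, and Mto1 at 75.3 kb and Eef1a1 at 110.3 kb did not pass. Whether neighbours moved more often than other genes was not tested.

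**Figure D4:**
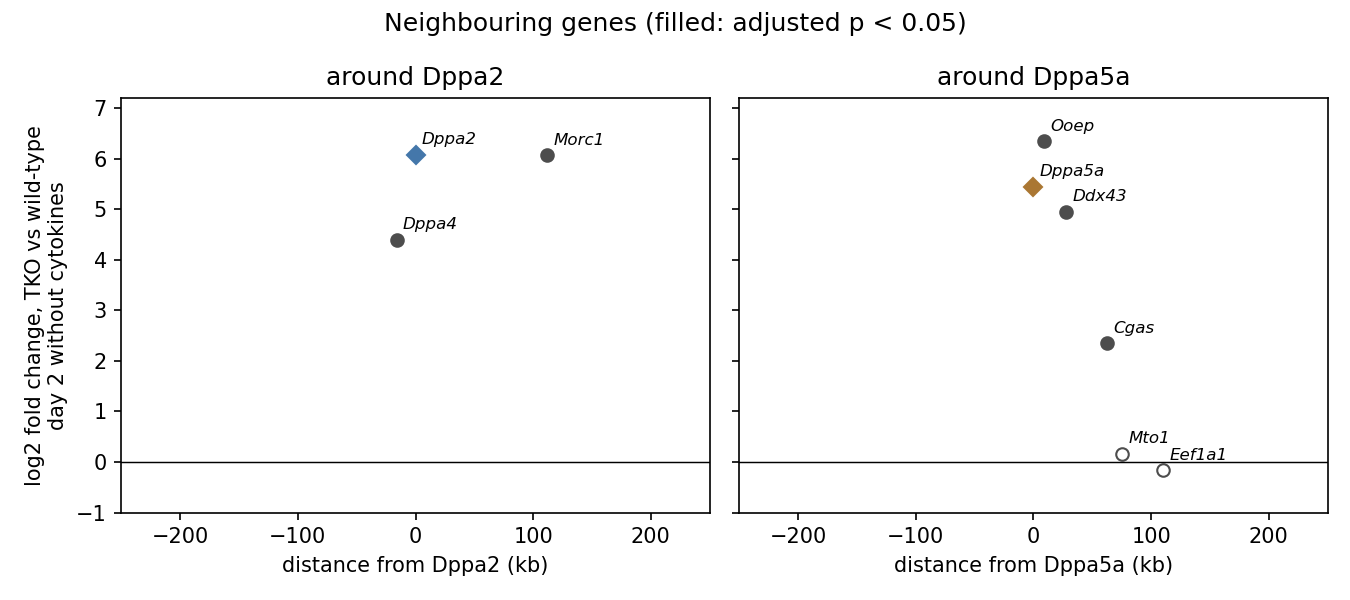
Log2 fold change between TKO and wild-type cells at day 2 without cytokines against the distance in kb from Dppa2 or Dppa5a, for tested genes within 250 kb out of the 5 nearest genes on each side, filled where the adjusted p was below 0.05. Morc1 stands at 6.07 beside Dppa2 at 6.08, and Ooep at 6.34 beside Dppa5a at 5.44.

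Ooep and Khdc3, KH-domain relatives of Dppa5a that act in the oocyte, were the only 2 of 5 listed relatives with enough counts. Ooep held 366 and 275 in wild-type EpiLCs, 12.7 and 12.4 at day 2 and 4.08 and 3.47 at day 6 without cytokines, and 944 and 1320 in wild-type PGCLCs. TKO libraries held 360 and 676 in EpiLCs and 935 to 2127 in PGCLCs. Ooep thus rose from wild-type EpiLCs to PGCLCs (log2 fold change of 1.87 ± 0.28, adjusted p = 9.96e-05) where Dppa5a did not pass. Both relatives were higher in TKO cells without cytokines at days 2 and 6, and Ooep was also higher with cytokines at day 6 (0.80 ± 0.26, adjusted p = 0.0465). The remaining gene named Dppa in the table, Dppa1, was at 0 in every library except for 1 to 5 counts in 5 libraries of TKO PGCLCs, too few to test.

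Genes of the cleavage-stage program, which lie downstream of DPPA2 and DPPA4 in mouse ESCs, were low in every EpiLC library. The 19 listed genes in the table summed to 88.9 to 104 in wild-type and 0.99 to 16.5 in TKO EpiLCs, to 232 to 335 in wild-type PGCLCs, to 562 to 1056 in day 2 TKO PGCLCs, and to 6450 to 13296 in day 6 TKO PGCLCs. Of the 17 tested, 16 were higher and none lower in TKO than in wild-type PGCLCs with cytokines at day 6 (median log2 fold change of 5.50, against 0.05 for all genes, of which 11.3% were higher). Without cytokines 16 were higher at day 2 and 17 at day 6 (18% and 28.5% of all genes), while 6 were lower and none higher in TKO EpiLCs (3.18% and 7.57%). Zscan4d held 9.04 and 14.8 in wild-type PGCLCs, against 1730 and 1690 in the TKO PGCLCs given cytokines for 6 days. Zscan4a held 21.6 and 42.5 against 1613 and 1310, and Usp17le 66.1 and 62.4 against 1789 and 1986. Dux, the activator of these genes (chosen after its values were seen), held 4.17 and 8.37 against 108 and 76.9, a log2 fold change of 3.84 ± 0.61 (adjusted p = 0.000963). In TKO PGCLCs with cytokines 16 of the 17 rose from day 2 to day 6, against 4.28% of all genes, while Dppa2 and Dppa4 did not pass in that comparison. These families have near-identical members, so counts of single genes are uncertain.

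Most pluripotency genes and germline genes known to be silenced by methylation were higher in TKO than in wild-type cells without cytokines. Of 16 pluripotency genes, 15 were higher at day 2 without cytokines (18% of all genes) and 16 at day 6 (28.5%), with 6 higher in EpiLCs (7.57%) and 3 higher (11.3%) and 1 lower (7.53%) with cytokines at day 6. Within wild-type cells without cytokines, 6 of the 16 fell and 2 rose from EpiLCs to day 2 (15.7% and 18.6% of all genes), and 11 fell and none rose from day 2 to day 6 (19% and 20.5%). The most abundant were Pou5f1, Tdgf1 and Sox2. Tdgf1 was higher at day 2 without cytokines (5.60 ± 0.39, adjusted p = 1.53e-07) and Pou5f1 did not pass (0.67 ± 0.42, adjusted p = 0.236). Of 21 germline genes, 19 were higher at day 2 and 20 higher and 1 lower at day 6 without cytokines, 10 were higher in EpiLCs and 14 with cytokines at day 6, against the same shares of all genes and 26.9% lower at day 6 without cytokines. In wild-type cells without cytokines 16 of the 21 fell and 1 rose from EpiLCs to day 2, and 11 fell and 2 rose from day 2 to day 6. The most abundant of them, Tex19.1, a gene that restrains transposons in germ cells, was higher in TKO EpiLCs (1.18 ± 0.28, adjusted p = 0.0145), where no member passed. The ribosomal protein gene Rpl10l and the synaptonemal complex gene Sycp3 were higher at day 2 without cytokines by 4.87 ± 0.55 and 2.87 ± 0.34 (adjusted p = 1.21e-05 and 1.76e-05).

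Of 14 genes of the DNA methylation machinery, among them the 3 deleted Tet genes, 4 were lower in TKO EpiLCs (3.18% of all genes). At day 2 without cytokines 4 were higher and 4 lower (18% and 14.8% of all genes), and at day 6 without cytokines 6 were higher and 3 lower (28.5% and 26.9%). At day 6 with cytokines 1 was higher and 6 were lower (11.3% and 7.53%). Among the lower genes were Tet1 and Tet3 in EpiLCs, Tet3 at day 2, and Tet2 and Tet3 at day 6 without cytokines. At day 6 with cytokines they included Tet1, Tet2 and Tet3. As these genes were deleted in TKO cells, their calls cannot be read apart from the deletion. The most abundant of the 14 were Trim28, Dnmt3b and Dnmt1. With cytokines at day 6 the maintenance methyltransferase Dnmt1 was lower in TKO PGCLCs (−0.73 ± 0.14, adjusted p = 0.00212), the de novo methyltransferase Dnmt3b was higher (1.13 ± 0.28, adjusted p = 0.0105), and the corepressor Trim28 did not pass (0.31 ± 0.19, adjusted p = 0.297).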

How the data were processed

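The 18 libraries were made from ribosomal RNA-depleted total RNA with a directional kit, 2 replicates for each condition, and were grouped by their labels. The authors trimmed reads (Trim Galore 0.5.0, cutadapt 1.16), aligned them with STAR 2.7.1a to mm10 and counted fragments on refGene exons with featureCounts (Subread 1.5.2). Versions follow the submitters' processing notes. Per the file headers, counting ignored strand and left out fragments with several alignments or several overlapping genes. The deposited values are raw counts per gene without normalisation, and 33 command lines between the genes were removed. The study calls the 2 libraries of a condition biological replicates, without saying how their cultures were separated.

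Counts were filtered with filterByExpr, scaled with TMM factors and fitted with 1 model of 9 group means (edgeR 4.0.16, limma 3.58.1, R 4.3.3). Members were tested with edgeR's quasi-likelihood test, adjusted by Benjamini-Hochberg over 16582 genes and called at an adjusted p of 0.05. Standard errors were approximated by dividing each log2 fold change by the root of its F statistic. Levels are counts divided by DESeq2 1.42.0 size factors. With 2 libraries against 2, an exact permutation test of a single gene cannot go below p = 0.333. A group without counts was set to 3 counts per library for a bound, and a group with 1 count was given a ratio with an exact 95% counting interval. For this ratio, counts and size factors were pooled over the 2 libraries of each group, so it differs from the ratio of mean levels. For Dppa3 the ratios of mean levels were 1630 in place of 1147, 3910 in place of 2718 and 14.6 in place of 10.6. Exon lengths are those of GENCODE vM21 transcripts linked to RefSeq. The scripts were tested on simulated data. Samples with the same replicate number were checked for shared deviations.

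Named genes were the members, the 5 genes of highest correlation with each (log2 CPM, prior count of 2), the 3 most abundant tested genes of each list (pluripotency, methylation machinery, cleavage-stage program, germline, KH-domain relatives and markers of EpiLCs, PGCLCs, neural cells, mesoderm and endoderm) and 5 neighbours on each side. Members and lists were chosen with earlier results of these data known. Alternatives were RLE factors, library size with and without Rn45s, no filter, a mean CPM of 1, DESeq2's Wald test, the replicate number as a block, a fit of the compared libraries alone, a limit of 2 on the log2 fold change, and leaving out each library in turn. Some neighbouring genes are not reported here.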

Additional observations from a re-analysis of the deposited data

Results flagged for a closer look

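The response of the 4 genes differed between TKO and wild-type cells in all 3 interactions tested with edgeR, each a difference of 2 log2 fold changes, here TKO minus wild-type. For the effect of cytokines at day 6, 4 of 4 members had a lower value in TKO cells, against 22% of all genes. The interaction was −12.06 ± 0.72 (SE) for Dppa2, −11.20 ± 0.85 for Dppa3, −9.73 ± 0.63 for Dppa4 and −8.18 ± 0.60 for Dppa5a (adjusted p from 3.24e-08 to 1.53e-07). In wild-type cells at day 6, all 4 transcripts were higher with than without cytokines, where the cells with cytokines were sorted. Against wild-type EpiLCs, only Dppa3 was called higher in those sorted cells, so for the other genes the contrast reflects low levels without cytokines. TKO PGCLCs showed no called change with cytokines.

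For the step from EpiLCs to day 2 without cytokines, 4 of 4 members had a higher value in TKO cells, against 6.08% of all genes. The values were 5.92 ± 0.43 for Dppa2, 6.01 ± 0.79 for Dppa3, 4.24 ± 0.46 for Dppa4 and 4.92 ± 0.54 for Dppa5a (adjusted p from 4.50e-06 to 0.000189). All 4 transcripts fell in wild-type cells at this step, while Dppa2 and Dppa3 rose in TKO cells.

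For the step from day 2 to day 6 without cytokines, 4 of 4 members again had a higher value in TKO cells, against 9.81% of all genes. The values were 7.201 ± 1.03 for Dppa2, 5.23 ± 1.30 for Dppa3, 4.83 ± 0.71 for Dppa4 and 3.79 ± 0.56 for Dppa5a (adjusted p from 0.000269 to 0.0117). The call of Dppa3 was lost without day 2 wild-type replicate 2 (4.406) or day 6 wild-type replicate 1 (7.04), both without cytokines. For Dppa2 and Dppa3, interactions that involve day 6 wild-type cells without cytokines, with 0 and 1 counts, depend on the prior count and are no bound on the difference. Those of Dppa4 rest on 5 and 0 counts in the same cells, so their size is uncertain too.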

How the results depend on the processing

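Of 682 values of the members under alternatives other than leaving out a library, 644 kept direction and side of the threshold, as did 322 of 352 with 1 library left out. Scaling by library size alone moved the median of all genes by −0.51 to 0.57 (log2), and passed Dppa2 (0.85) and Dppa5a (1.012) in wild-type PGCLCs against EpiLCs. It turned the sign of values that passed in neither fit, namely Dppa4 (0.26) and Dppa5a (0.41) in day 2 TKO cells without cytokines against EpiLCs, Dppa4 for cytokines in TKO cells at day 2 (−0.15) and day 6 (−0.38), and Dppa5a in day 2 TKO cells without cytokines against wild-type PGCLCs (0.21). Without Rn45s only Dppa5a against EpiLCs turned (0.056). Without a filter Dppa3 in TKO against wild-type EpiLCs (−1.51), Dppa3 in wild-type cells from day 2 to day 6 (−3.06) and Dppa5a in day 6 TKO against wild-type PGCLCs (1.04), day 2 TKO PGCLCs with cytokines against EpiLCs (0.94) and against wild-type PGCLCs (0.85), and cytokines in TKO cells at day 2 (1.09) and day 6 (1.06) passed. DESeq2 passed Dppa3 in EpiLCs (−1.55), Dppa5a in day 6 PGCLCs (1.053), day 2 TKO PGCLCs with cytokines against EpiLCs (0.95) and cytokines in TKO cells (1.06 and 1.04), and Dppa2 in day 2 TKO PGCLCs with cytokines against wild-type PGCLCs (0.64). With only the libraries compared, these passed: in day 6 TKO against wild-type PGCLCs Dppa4 (−0.52) and Dppa5a (1.02), in wild-type PGCLCs against EpiLCs Dppa2 (0.41), Dppa4 (0.37) and Dppa5a (0.56), Dppa2 in TKO cells without cytokines from day 2 to day 6 (0.43), cytokines in TKO cells for Dppa3 (1.02) and Dppa5a (1.07) at day 2 and Dppa5a (1.002) at day 6, and against wild-type PGCLCs Dppa2 (0.64) and Dppa5a (0.87) in day 2 TKO PGCLCs with and Dppa4 (−0.48) without cytokines. A limit of 2 on the log2 fold change removed the calls at 1.22 and −1.47 in day 6 PGCLCs, at 0.93 and 1.18 for Dppa2 in day 2 TKO PGCLCs against EpiLCs and at 0.88 against wild-type PGCLCs. The cause was not tested beyond what these settings change by construction.

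With 1 library left out, a lone library is assumed to vary like the other groups. Log2 fold changes of results that changed side or sign then ranged as follows. In TKO against wild-type cells, Dppa3 ranged from −2.71 to −0.83 and Dppa5a from −0.086 to 0.95 in EpiLCs, and Dppa2 from 1.14 to 1.28 and Dppa3 from −1.96 to −1.12 in day 6 PGCLCs. In day 2 TKO PGCLCs against TKO EpiLCs, Dppa2 ranged from 0.86 to 0.99, Dppa4 from −0.11 (also −0.012) to 0.18 and Dppa5a from 0.48 to 1.56 with cytokines, and Dppa2 from 1.06 to 1.27 and Dppa5a from −0.56 to 0.47 without. Dppa2 ranged from 0.77 to 0.97 in day 2 TKO PGCLCs without cytokines against wild-type PGCLCs. From day 2 to day 6 in TKO PGCLCs, Dppa3 ranged from 1.82 to 2.66 without and Dppa5a from −0.17 to 0.65 with cytokines. For cytokines in day 6 TKO PGCLCs, Dppa2 ranged from −0.18 to 0.0051 and Dppa3 from −0.68 to 0.16 (also 0.040). The interaction for Dppa3 from day 2 to day 6 ranged from 4.406 to 7.04.

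Replicate numbers did not pair the libraries (correlation of deviations from −0.16 to 0.18 over 36 pairs of conditions, above 0.1 in 7). With the replicate number as a block no call of a member changed, Dppa3 in day 6 PGCLCs stood at −1.47, and counts of called genes moved by less than 1.5 times. Folds against day 6 wild-type cells without cytokines are limited by the 0 and 1 counts of Dppa2 and Dppa3 there, in libraries of 13195593 and 33893720 counts. Those of Dppa4 are limited by its 5 and 0 counts in replicates 1 and 2 of these cells.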

Other observations

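Markers of the germ layers were followed beside the members as a description of the same cultures. For comparison, of all genes 7.57% were higher and 3.18% lower in TKO than in wild-type EpiLCs, 18% and 14.8% at day 2 and 28.5% and 26.9% at day 6 without cytokines, and 11.3% and 7.53% at day 6 with cytokines, so with lists this short several of the counts are near these shares. Of 7 tested mesoderm markers, 3 were higher in TKO than in wild-type cells at day 2 without cytokines, 4 at day 6 without cytokines, 1 in EpiLCs and 1 at day 6 with cytokines, and none was lower. The collagen gene Col1a1 held 1087 and 1928 in TKO and 354 and 185 in wild-type cells at day 2 without cytokines (log2 fold change of 2.46 ± 0.56, adjusted p = 0.00358 by edgeR), and the heart and placenta factor Hand1 held 84.1 and 112 against 2.92 and 0. The primitive streak factor T held 999.5 and 77.0 in day 2 TKO PGCLCs with cytokines, replicates that stood far apart. Of 6 endoderm markers, 3 were higher in EpiLCs, 1 higher and 1 lower at day 2 and 4 higher and 1 lower at day 6 without cytokines, and 3 higher and 1 lower at day 6 with cytokines. Gata4 held 107 and 37.4 in TKO and 4.82 and 3.89 in wild-type EpiLCs (4.10 ± 0.64, adjusted p = 0.00128). The epithelial gene Epcam did not pass in EpiLCs (0.40 ± 0.39), and the chemokine receptor Cxcr4 held 2041 and 1803 in wild-type cells kept without cytokines to day 6, and no more than 211 in any other library.

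Of 5 EpiLC markers, 3 were lower and none higher in TKO EpiLCs, among them Dnmt3b (−1.35 ± 0.27, adjusted p = 0.00603) and the POU factor Pou3f1 (−1.27 ± 0.28, adjusted p = 0.0101), while Otx2 did not pass (0.94 ± 0.83, adjusted p = 0.513). Of 8 PGCLC markers, 5 were higher and none lower in TKO than in wild-type cells without cytokines at each of days 2 and 6, and 2 were higher in EpiLCs. Prdm14, a regulator of germ cell fate, held 18.8 and 70.4 in TKO against 3.21 and 0.556 in wild-type EpiLCs, and 504 to 1235 in TKO PGCLCs against 1295 and 1046 in wild-type ones. At day 6 with cytokines it did not pass between the genotypes (−0.02 ± 0.33, adjusted p = 0.981), where Tfap2c was lower in TKO PGCLCs (−1.17 ± 0.23, adjusted p = 0.00255) and the receptor gene Kit did not pass (−1.37 ± 0.48, adjusted p = 0.0570). Of the 11 neural markers, 2 were higher and 1 lower in TKO PGCLCs in that comparison, with Tubb3 (1.94 ± 0.34, adjusted p = 0.00127) and Stmn2 (2.50 ± 0.29, adjusted p = 6.22e-05) higher and Map2 not passing (0.47 ± 0.33, adjusted p = 0.351).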
